A study of Mus musculus with 167 samples.

Results

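The 5 genes described here, Cyp3a11, Cyp3a13, Cyp3a16, Cyp3a25 and Cyp3a44, are mouse members of the Cyp3a family of cytochrome P450 enzymes. They were the Cyp3a genes to which the platform annotation gives a probe set of their own, among 18193 genes with such a probe set, and each of the 5 had 1 probe set. Of 6 Cyp3a probe sets in all, 1 names both Cyp3a41a and Cyp3a41b and was left out. Liver RNA of male C57BL/6 mice was hybridised to Affymetrix arrays, 1 array per animal. Humanized mice carry human CAR and human PXR, knock-out mice lack CAR and PXR, and wild-type mice have their own receptors; the labels do not say what drives the human receptors. Phenobarbital was given in the drinking water to mice aged 9 to 11 weeks, at 0.05% (weight per volume) by the treatment text. Control mice did not receive it. That text is mixed, as smaller doses and a different age at the start are named there too. The labels of the arrays hold no dose, so dose and age are not settled for every animal. Dosed mice and their controls were killed on day 1, 7, 14, 28 or 91, and a last set on day 119, after 4 weeks without phenobarbital. The 36 groups of genotype, treatment and day hold 3 to 5 animals each. By arm, the arrays number 27 of treated and 29 of control humanized mice, 28 of treated and 27 of control knock-out mice, and 29 of treated and 27 of control wild-type mice.

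CYP3A enzymes sit in the endoplasmic reticulum and oxidise steroids, bile acids and a wide range of drugs, with electrons passed on by P450 reductase and cytochrome b5. PXR (Nr1i2) and CAR (Nr1i3) are nuclear receptors that pair with RXR on DNA; PXR binds many foreign compounds directly, CAR is the receptor through which phenobarbital acts in rodent liver, and both raise Cyp3a and Cyp2b genes. Cyp3a11 is the main Cyp3a enzyme of male mouse liver and the standard PXR target, Cyp3a25 and Cyp3a13 are made in liver and gut, Cyp3a44 is more abundant in female than in male mouse liver, and Cyp3a16 belongs to fetal and newborn liver.

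The genes lie on chromosome 5. In the RefSeq gene order (GRCm38.p6) Cyp3a13 stands apart, and the others follow each other in a cluster in the order Cyp3a16, Cyp3a44, Cyp3a11 and Cyp3a25, with further Cyp3a genes and pseudogenes between and beyond them. The 250 bases before the annotated start of each of the 4 genes that were tested are shown because all 4 genes rose under phenobarbital in humanized and in wild-type livers. They are from RefSeq, minus strand, written 5′ to 3′, and capitals mark matches to AGGTCA, the half-site that nuclear receptors of this kind bind, or to a pair of such half-sites in a fixed arrangement.
Cyp3a11, chr5:145879855-145880104: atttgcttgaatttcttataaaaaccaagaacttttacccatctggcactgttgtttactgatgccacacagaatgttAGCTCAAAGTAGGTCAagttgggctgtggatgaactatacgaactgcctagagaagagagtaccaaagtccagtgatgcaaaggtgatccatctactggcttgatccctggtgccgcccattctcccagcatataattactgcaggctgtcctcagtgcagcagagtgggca
Cyp3a25, chr5:146009619-146009868: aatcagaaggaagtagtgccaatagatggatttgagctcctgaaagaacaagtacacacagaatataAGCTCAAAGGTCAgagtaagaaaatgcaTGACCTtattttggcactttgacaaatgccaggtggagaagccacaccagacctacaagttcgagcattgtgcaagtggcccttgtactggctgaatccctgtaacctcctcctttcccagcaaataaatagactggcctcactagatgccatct
Cyp3a13, chr5:137921620-137921869: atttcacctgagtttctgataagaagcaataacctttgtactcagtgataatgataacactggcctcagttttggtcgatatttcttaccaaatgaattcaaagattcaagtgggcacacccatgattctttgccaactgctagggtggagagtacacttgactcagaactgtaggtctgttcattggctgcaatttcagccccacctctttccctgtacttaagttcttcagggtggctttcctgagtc
Cyp3a44, chr5:145805875-145806124: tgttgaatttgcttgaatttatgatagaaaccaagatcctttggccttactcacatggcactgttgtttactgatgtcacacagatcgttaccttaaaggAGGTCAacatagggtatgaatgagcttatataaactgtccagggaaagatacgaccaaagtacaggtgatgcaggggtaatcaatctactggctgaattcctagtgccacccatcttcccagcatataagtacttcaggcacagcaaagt
The motifs were searched on both strands in 300-base windows, 250 bases before to 50 after the start. The Cyp3a11 window held a DR4 pair (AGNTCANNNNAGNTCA) whose first base is at −172 from the start; 0.125% of 32851 promoter windows held that motif. The Cyp3a25 window held a DR1 pair (AGNTCANAGNTCA) at −183, a motif in 0.219% of windows, and a further AGGTCA on the other strand at −155. In the Cyp3a44 window there was a lone AGGTCA at −150, as in 16.3% of windows. Neither the Cyp3a13 nor the Cyp3a16 window held any of the motifs, which also included DR3 (AGNTCANNNAGNTCA, 0.07% of windows), ER6 (TGANCTNNNNNNAGNTCA, 0.0304%) and ER8 (TGANCTNNNNNNNNAGNTCA, 0.0639%). The single AGGTCA matches of Cyp3a11 and of Cyp3a25 on the plus strand lie inside their pairs. Over the whole windows Cyp3a44 and Cyp3a16 were 93.4% identical, Cyp3a11 was 75.2% identical to Cyp3a16 and 71.8% to Cyp3a44, and the other pairs were 52.7% to 58.1% identical. A match is a stretch of letters and not a shown binding site.

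Some facts of all the arrays bear on the values. The signals of the mouse receptors followed the labels: Nr1i2 averaged 3.76 in humanized, 3.57 in knock-out and 7.52 in wild-type controls (log2), and Nr1i3 averaged 5.09, 4.93 and 8.42; human receptor transcripts were not analysed here. The 8 hepatocyte markers (such as Alb and Apoa1) averaged 13.62 to 14.01 on every array. Acinar markers of the pancreas, 5 of 7 on the array, averaged 4.97 to 12.54, and they were above 7 in 26 of 166 livers: 3 humanized, 7 knock-out and 16 wild-type. Of these 26 livers, 2 were humanized treated and 1 humanized control, 3 knock-out treated and 4 knock-out control, and 8 wild-type treated and 8 wild-type control. Their part in the results was not tested beyond repeating each comparison without those livers, a step chosen after the data were seen. Animals 6026 and 6030 (humanized, treated, day 119) had almost the same values and were counted as 1 sample, which leaves 166 samples, and animals 4019 and 4024 (knock-out, treated, days 28 and 91) also had almost the same values under different labels, so results for these knock-out days were repeated without them.

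The signals of the 5 genes covered most of the scale of the arrays, whose deposited log2 values run between 2.11 and 15.07. Cyp3a11 was the brightest, at 13.90 to 14.71 (mean 14.38), and only 3 to 58 of 45101 probe sets on an array were brighter. Cyp3a25 read 13.21 to 14.02 (mean 13.67), with 38 to 153 brighter probe sets on each array. Both genes were therefore near the top of the range, where signals of such arrays flatten, and a log2 difference there can be smaller than the difference in RNA. Cyp3a13 read 10.49 to 11.81 (mean 11.17). The Cyp3a44 signal was 5.09 to 7.00 (mean 5.88) and stood above the array median, 5.15 to 5.23, on all but 2 of the arrays. Cyp3a16 read 2.56 to 3.2 (mean 2.85) and was below the median on every array, so that it did not pass the filter on dim genes and was not tested; 4 of the 5 genes passed. Different probe sets bind with different strength, so these signals rank no gene above another in RNA.

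**Figure D1:**
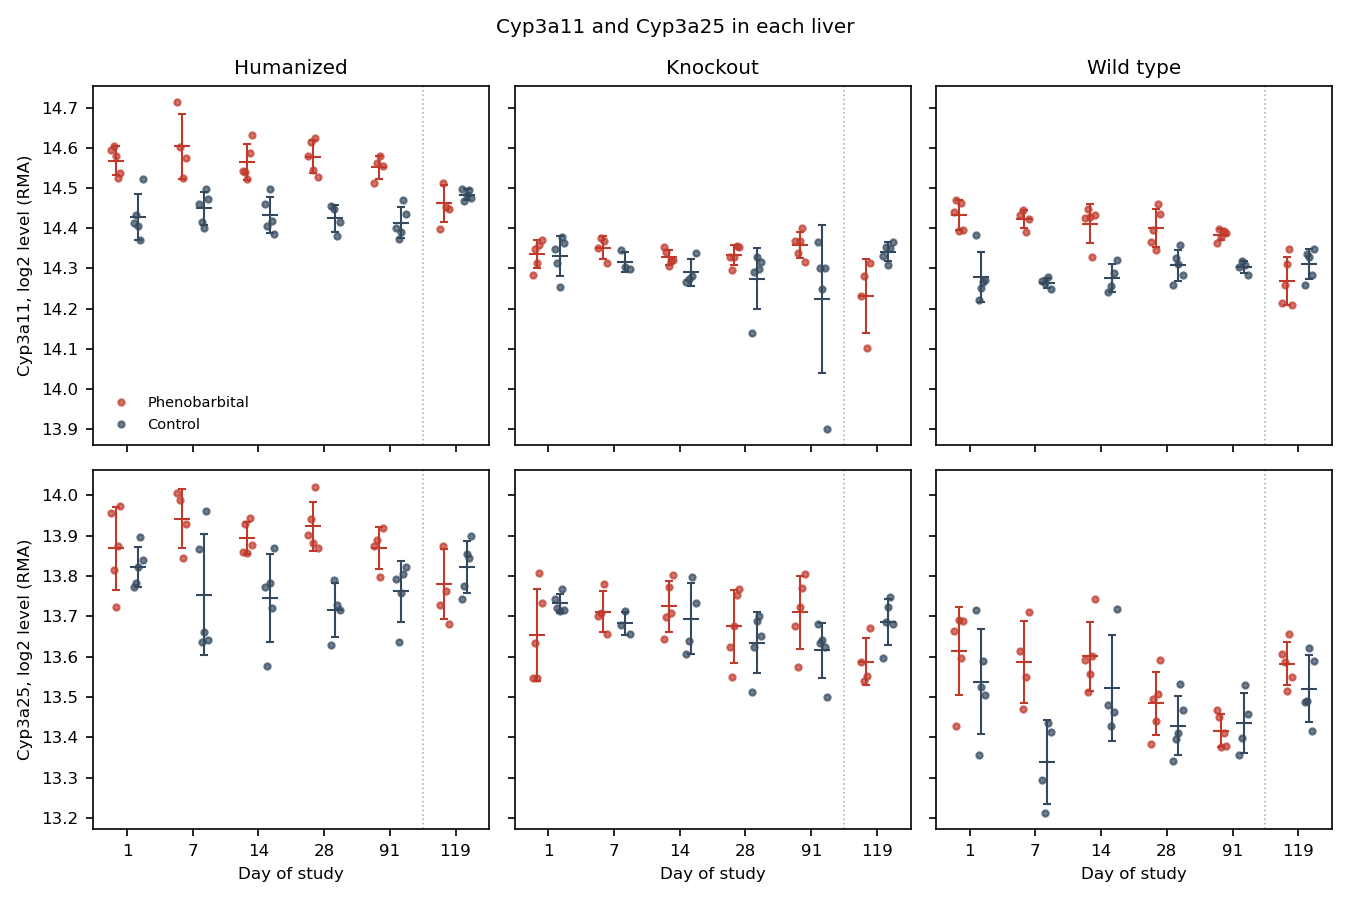
Deposited log2 signal of Cyp3a11 (upper row) and Cyp3a25 (lower row) per liver by day, in humanized, knock-out and wild-type mice, with phenobarbital left of control at each day; points are animals and bars are the group mean ± SD. On the dosing days the treated humanized livers read 14.51 or more for Cyp3a11, against 14.52 or less in their controls, and the arms meet again on day 119.

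Under phenobarbital Cyp3a11 rose in humanized and wild-type livers, and by less in knock-out livers. In humanized mice on the dosing days the level ran 14.51 to 14.71 with a median of 14.57 (n = 23) under phenobarbital, against 14.37 to 14.52 with a median of 14.42 (n = 24) in controls. Knock-out levels ran 14.28 to 14.40 with a median of 14.35 (n = 24) under phenobarbital, against 13.90 to 14.38 with a median of 14.30 (n = 22) in controls. Wild-type levels ran 14.33 to 14.47 with a median of 14.41 (n = 24) under phenobarbital, against 14.22 to 14.38 with a median of 14.28 (n = 22) in controls. The humanized arms barely touched and the wild-type arms overlapped at their edges, while nearly all treated knock-out livers lay within the range of their controls. Averaged over the 5 dosing days with equal weight, phenobarbital minus control was 0.144 ± 0.017 (SE; adjusted p = 1.1e-12) in humanized livers, a ratio of 1.1. The same difference was 0.054 ± 0.017 (SE; adjusted p = 0.0145) in knock-out livers and 0.124 ± 0.017 (SE; adjusted p = 6.81e-10) in wild-type livers, a ratio of 1.09. Adjusted p-values here and below are from limma, adjusted by Benjamini-Hochberg over the 12622 genes tested, two-sided, with a threshold of 0.05. Of all genes tested, 32.4% passed in humanized, 19.6% in knock-out and 31.5% in wild-type mice in this comparison. With a spread estimated from the knock-out arrays alone, the knock-out value of Cyp3a11 did not pass (adjusted p = 0.11). In whole liver, fewer cells of a type and less RNA per cell cannot be told apart.

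In humanized mice the Cyp3a11 difference was of like size on every dosing day, 0.131 to 0.154, and passed on all 5; with repeated quantile normalization day 28 gave 0.105 (adjusted p = 0.0672) and day 91 gave 0.117 (adjusted p = 0.0884). On day 7 the level was 14.53, 14.58, 14.60 and 14.71 under phenobarbital, against 14.40, 14.42, 14.46, 14.47 and 14.50 in controls. Every treated humanized liver was above every control of its day on all 5 days. How many of all genes were separated like this is not given, here or for other groups described as not overlapping. The day 7 difference was 0.154 ± 0.038 (SE; adjusted p = 0.00486), and without animal 6006, the highest, it was 0.118 (adjusted p = 0.0768). On day 91 the difference was 0.138 (adjusted p = 0.0251), and it missed the threshold without any 1 of 5 animals (6022, 6023, 6025, 5022 or 5023; 0.128 to 0.137, adjusted p = 0.055 to 0.0836).

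In wild-type mice the difference passed on days 1, 7 and 14. On day 1 the level was 14.39, 14.39, 14.44, 14.46 and 14.47 under phenobarbital, against 14.22, 14.25, 14.27, 14.27 and 14.38 in controls. Already at this first day no treated liver overlapped a control, and the difference was 0.154 ± 0.036 (SE; adjusted p = 0.0012). On day 7 the level was 14.39, 14.42, 14.43 and 14.45 under phenobarbital, against 14.25, 14.26, 14.27 and 14.28 in controls, a difference of 0.158 ± 0.04 (SE; adjusted p = 0.00781). Both groups were tight, and their ranges were apart by more than the width of either. The difference was 0.135 (adjusted p = 0.013) on day 14, 0.093 (adjusted p = 0.122) on day 28 and 0.08 (adjusted p = 0.306) on day 91, when treated livers still lay above all controls. Without the livers high in acinar markers, day 1 gave 0.142 (adjusted p = 0.16) and day 14 gave 0.089 (adjusted p = 0.361).

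In knock-out mice Cyp3a11 passed the threshold on a single dosing day. On day 1 the level was 14.28, 14.31, 14.35, 14.36 and 14.37 under phenobarbital, against 14.25, 14.31, 14.35, 14.36 and 14.38 in controls, a difference of 0.003 ± 0.036 (SE; adjusted p = 0.973). These 2 groups covered nearly the same range. On day 91 the level was 14.32, 14.34, 14.37, 14.37 and 14.40 under phenobarbital, against 13.90, 14.25, 14.30, 14.30 and 14.37 in controls, a difference of 0.135 ± 0.036 (SE; adjusted p = 0.0207). That day's difference rested on control animal 3025, at 13.90 the lowest Cyp3a11 level of all arrays: without it the difference was 0.054 (adjusted p = 0.352). Without animals 4019 and 4024 it was 0.124 (adjusted p = 0.054). All single-day calls of Cyp3a11, in every genotype, were lost when the spread was estimated from the compared groups alone (adjusted p = 0.0943 to 0.479).

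Cyp3a25, the neighbour of Cyp3a11 on the chromosome, rose in humanized and wild-type livers. In humanized mice the level ran 13.72 to 14.02 with a median of 13.89 under phenobarbital, against 13.58 to 13.96 with a median of 13.78 in controls. Knock-out levels ran 13.55 to 13.81 with a median of 13.70 under phenobarbital, against 13.50 to 13.80 with a median of 13.68 in controls. Wild-type levels ran 13.38 to 13.74 with a median of 13.53 under phenobarbital, against 13.21 to 13.72 with a median of 13.45 in controls. The arms overlapped in every genotype, most of all in knock-out mice. The dosing-day difference was 0.14 ± 0.025 (SE; adjusted p = 1.95e-06) in humanized livers, 0.023 ± 0.025 (SE; adjusted p = 0.571) in knock-out livers and 0.088 ± 0.025 (SE; adjusted p = 0.00386) in wild-type livers. Without the livers high in acinar markers, the wild-type value was 0.070 (adjusted p = 0.0685).

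The largest single-day differences of Cyp3a25 were in wild-type mice on day 7 and in humanized mice on day 28. On day 7 the wild-type level was 13.47, 13.55, 13.61 and 13.71 under phenobarbital, against 13.21, 13.29, 13.41 and 13.44 in controls, a difference of 0.247 ± 0.06 (SE; adjusted p = 0.00481). The groups did not overlap, although both spread widely. Without animal 1007 or 2009 the difference was 0.205 (adjusted p = 0.0605 and 0.0601). Leaving out the livers high in acinar markers also gave 0.205 (adjusted p = 0.0513). On day 28 the humanized level was 13.87, 13.88, 13.90, 13.94 and 14.02 under phenobarbital, against 13.63, 13.71, 13.73 and 13.79 in controls, a difference of 0.208 ± 0.057 (SE; adjusted p = 0.00962). The groups were again apart, and without control animal 5016 the difference was 0.179 (adjusted p = 0.0561). Day 7 in humanized mice also passed, at 0.188 (adjusted p = 0.0322), and was lost without any 1 of 5 animals (5007, 5008, 5010, 6006 or 6007; 0.159 to 0.172, adjusted p = 0.0957 to 0.115). The other dosing days gave 0.045 to 0.149 in humanized, −0.078 to 0.094 in knock-out and −0.019 to 0.08 in wild-type mice, and none passed. The humanized value on day 14 was close to the threshold (adjusted p = 0.0525), and it passed with repeated quantile normalization (0.177, adjusted p = 0.00948), with a stricter filter on dim genes (0.149, adjusted p = 0.049), with a trended and robust variance prior (0.149, adjusted p = 0.0463), without the livers high in acinar markers (0.149, adjusted p = 0.0426) and without animal 5015 (0.180, adjusted p = 0.022).

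**Figure D2:**
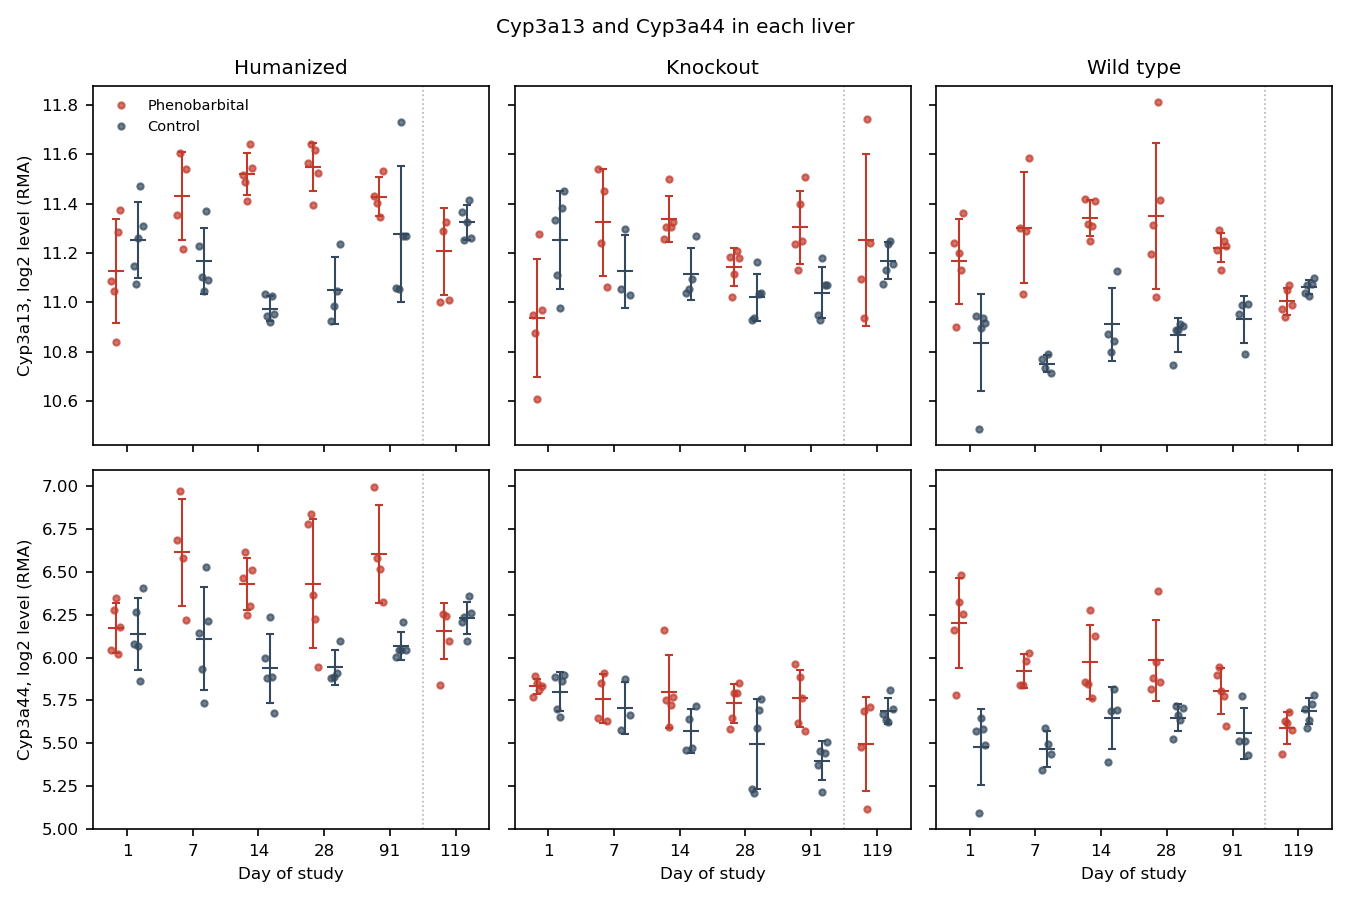
Deposited log2 signal of Cyp3a13 (upper row) and Cyp3a44 (lower row) per liver by day, in humanized, knock-out and wild-type mice, with phenobarbital left of control at each day; points are animals and bars are the group mean ± SD. Cyp3a13 read 11.41 to 11.64 in treated humanized livers on day 14, above all their controls, and Cyp3a44 read up to 7.00 in a treated humanized liver on day 91.

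Cyp3a13, an enzyme of liver and gut whose gene lies apart from the cluster and whose promoter window held none of the motifs, rose in humanized and wild-type livers. In humanized mice the level ran 10.84 to 11.64 with a median of 11.43 under phenobarbital, against 10.92 to 11.73 with a median of 11.08 in controls. Knock-out levels ran 10.61 to 11.54 with a median of 11.24 under phenobarbital, against 10.93 to 11.45 with a median of 11.06 in controls. Wild-type levels ran 10.90 to 11.81 with a median of 11.27 under phenobarbital, against 10.49 to 11.13 with a median of 10.89 in controls. Wild-type controls were the lowest arm of all, and the treated wild-type livers covered the levels of the other genotypes' controls. The dosing-day difference was 0.266 ± 0.045 (SE; adjusted p = 5.72e-07) in humanized livers, a ratio of 1.2. In knock-out livers it was 0.099 ± 0.046 (SE; adjusted p = 0.12), and in wild-type livers 0.417 ± 0.046 (SE; adjusted p = 8.92e-14), a ratio of 1.34.

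The Cyp3a13 difference passed on days 1 to 28 in wild-type mice and on days 14 and 28 in humanized mice. On day 7 the wild-type level was 11.03, 11.29, 11.30 and 11.58 under phenobarbital, against 10.71, 10.73, 10.77 and 10.79 in controls, a difference of 0.55 ± 0.109 (SE; adjusted p = 0.000187). The 4 controls lay close together and the treated livers spread wider, all above them. On day 14 it was 11.25, 11.31, 11.32, 11.41 and 11.42 under phenobarbital, against 10.80, 10.85, 10.87 and 11.13 in controls, a difference of 0.43 ± 0.103 (SE; adjusted p = 0.00266); without the livers high in acinar markers it was 0.339 (adjusted p = 0.157). On day 28 it was 11.02, 11.20, 11.31, 11.42 and 11.81 under phenobarbital, against 10.74, 10.89, 10.89, 10.91 and 10.91 in controls, a difference of 0.483 ± 0.098 (SE; adjusted p = 0.000186). No treated liver overlapped a control on these 3 days or on day 91, when the difference was 0.291 (adjusted p = 0.124). Day 1 gave 0.33 (adjusted p = 0.0133), but 0.243 (adjusted p = 0.104) without control animal 1002 and 0.281 (adjusted p = 0.0567) without treated animal 2005, and 0.341 (adjusted p = 0.242) without the livers high in acinar markers.

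In humanized mice Cyp3a13 did not pass before day 14. On day 1 the level was 10.84, 11.04, 11.09, 11.29 and 11.37 under phenobarbital, against 11.08, 11.15, 11.26, 11.31 and 11.47 in controls, a difference of −0.128 ± 0.098 (SE; adjusted p = 0.427). These groups overlapped, with the treated livers at the lower end. On day 14 the level was 11.41, 11.49, 11.52, 11.55 and 11.64 under phenobarbital, against 10.92, 10.94, 10.95, 11.03 and 11.03 in controls, a difference of 0.545 ± 0.098 (SE; adjusted p = 1.28e-05). All treated livers were then well above the controls, which lay close together. On day 28 the level was 11.40, 11.52, 11.56, 11.62 and 11.64 under phenobarbital, against 10.92, 10.99, 11.05 and 11.24 in controls, a difference of 0.5 ± 0.103 (SE; adjusted p = 0.000262). Day 7, at 0.261 (adjusted p = 0.139), and day 91, at 0.153 (adjusted p = 0.648), did not pass, and the day 91 difference minus the day 1 difference, 0.281 (adjusted p = 0.338), did not pass either.

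Knock-out livers were lower under phenobarbital on the first day, when humanized livers gave −0.128 without passing and wild-type livers rose by 0.33. On day 1 the Cyp3a13 level was 10.61, 10.88, 10.95, 10.97 and 11.28 under phenobarbital, against 10.98, 11.11, 11.33, 11.38 and 11.45 in controls, a difference of −0.315 ± 0.098 (SE; adjusted p = 0.0282). The treated livers were lower, with some overlap, and the call was lost without any 1 of 5 animals (3001, 3004, 3005, 4002 or 4003; −0.300 to −0.233, adjusted p = 0.0529 to 0.145) and without the livers high in acinar markers (−0.300, adjusted p = 0.081). On day 91 the level was 11.13, 11.24, 11.25, 11.40 and 11.51 under phenobarbital, against 10.93, 10.95, 11.07, 11.07 and 11.18 in controls, a difference of 0.266 ± 0.098 (SE; adjusted p = 0.107). The day 91 difference minus the day 1 difference was 0.581 ± 0.138 (SE; adjusted p = 0.0221), the only such change of the 4 genes that passed in any genotype. The share of all genes that passed it was 1.74% in humanized, 0.666% in knock-out and 0.436% in wild-type mice. Without animal 4003 it was 0.499 (adjusted p = 0.0558), and without the livers high in acinar markers 0.523 (adjusted p = 0.141).

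Cyp3a44, the form that is more abundant in females, read low in these male livers. Whether its probe set also reads Cyp3a11 RNA was not tested. The Cyp3a44 signal rose in humanized and wild-type mice, and by less in knock-out mice. In humanized mice the level ran 5.95 to 7.00 with a median of 6.37 under phenobarbital, against 5.68 to 6.53 with a median of 6.04 in controls. Knock-out levels ran 5.57 to 6.16 with a median of 5.78 under phenobarbital, against 5.21 to 5.90 with a median of 5.61 in controls. Wild-type levels ran 5.60 to 6.49 with a median of 5.89 under phenobarbital, against 5.09 to 5.81 with a median of 5.58 in controls. The highest livers were treated humanized ones, and the control arms of knock-out and wild-type mice covered much the same range. The dosing-day difference was 0.412 ± 0.054 (SE; adjusted p = 1.98e-10) in humanized livers, a ratio of 1.33. It was 0.183 ± 0.055 (SE; adjusted p = 0.0108) in knock-out livers and 0.418 ± 0.055 (SE; adjusted p = 2.13e-10) in wild-type livers, a ratio of 1.34.

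Cyp3a44 passed on days 7 to 91 in humanized mice and on days 1 and 7 in wild-type mice, although the change between the first and last dosing day did not pass in either. In wild-type mice on day 1 the level was 5.78, 6.16, 6.26, 6.32 and 6.48 under phenobarbital, against 5.09, 5.49, 5.57, 5.58 and 5.65 in controls, a difference of 0.725 ± 0.117 (SE; adjusted p = 1e-06). In humanized mice on day 1 it was 6.02, 6.04, 6.18, 6.28 and 6.35 under phenobarbital, against 5.86, 6.07, 6.08, 6.27 and 6.41 in controls, a difference of 0.035 ± 0.117 (SE; adjusted p = 0.884). So the first day separated the wild-type arms and left the humanized arms mixed. On day 14 the humanized level was 6.25, 6.30, 6.47, 6.51 and 6.62 under phenobarbital, against 5.68, 5.88, 5.89, 6.00 and 6.23 in controls, a difference of 0.495 ± 0.117 (SE; adjusted p = 0.00131). On day 91 it was 6.32, 6.52, 6.58 and 7.00 under phenobarbital, against 6.00, 6.04, 6.04, 6.05 and 6.21 in controls, a difference of 0.538 ± 0.124 (SE; adjusted p = 0.0031). The humanized arms were apart on both days, and day 91 without animal 6021, at 7.00 the highest of all arrays, gave 0.406 (adjusted p = 0.0891). Days 7 and 28 in humanized mice passed at 0.505 (adjusted p = 0.00469) and 0.488 (adjusted p = 0.00441); day 7 gave 0.386 (adjusted p = 0.0744) without animal 6007, and day 28 gave 0.386 (adjusted p = 0.0537) without the livers high in acinar markers. In wild-type mice day 7 passed at 0.456 (adjusted p = 0.0301), a call lost without any 1 of 4 animals (1006, 1010, 2008 or 2009, with 0.414 to 0.447, adjusted p = 0.0638 to 0.0987). That day gave 0.420 (adjusted p = 0.0861) without the livers high in acinar markers. Days 14, 28 and 91 gave 0.328, 0.334 and 0.247 in wild-type mice and did not pass, although day 14 passed without animal 2014 (0.380, adjusted p = 0.0483). The difference on day 91 minus that on day 1 was 0.502 (adjusted p = 0.103) in humanized and −0.478 (adjusted p = 0.244) in wild-type mice.

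In knock-out livers Cyp3a44 passed on no single day. On day 91 the level was 5.57, 5.62, 5.76, 5.88 and 5.96 under phenobarbital, against 5.22, 5.37, 5.44, 5.45 and 5.51 in controls, a difference of 0.363 ± 0.117 (SE; adjusted p = 0.0586). Every treated knock-out liver was above every control on that day, a separation whose share over all genes is not given. The value passed without animal 4022 (0.398, adjusted p = 0.0489) or 4025 (0.410, adjusted p = 0.0407). The differences on days 1 to 28 were 0.031 to 0.238.

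Cyp3a16, the fetal and newborn form, stayed at the bottom of the scale in every liver. In humanized mice it read 2.80 to 3.20 with a median of 2.97 under phenobarbital, against 2.71 to 3.13 with a median of 2.85 in controls. Knock-out livers read 2.64 to 3.15 with a median of 2.81 under phenobarbital, against 2.61 to 3.14 with a median of 2.81 in controls. Wild-type livers read 2.75 to 3.12 with a median of 2.89 under phenobarbital, against 2.56 to 3.06 with a median of 2.82 in controls. The arms overlapped widely. The dosing-day differences were 0.107 in humanized, −0.007 in knock-out and 0.106 in wild-type livers. With no filter on dim genes limma gave adjusted p = 0.00864 in humanized and 0.0104 in wild-type livers, for signals far under the array median that cannot show whether the transcript was present.

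**Figure D3:**
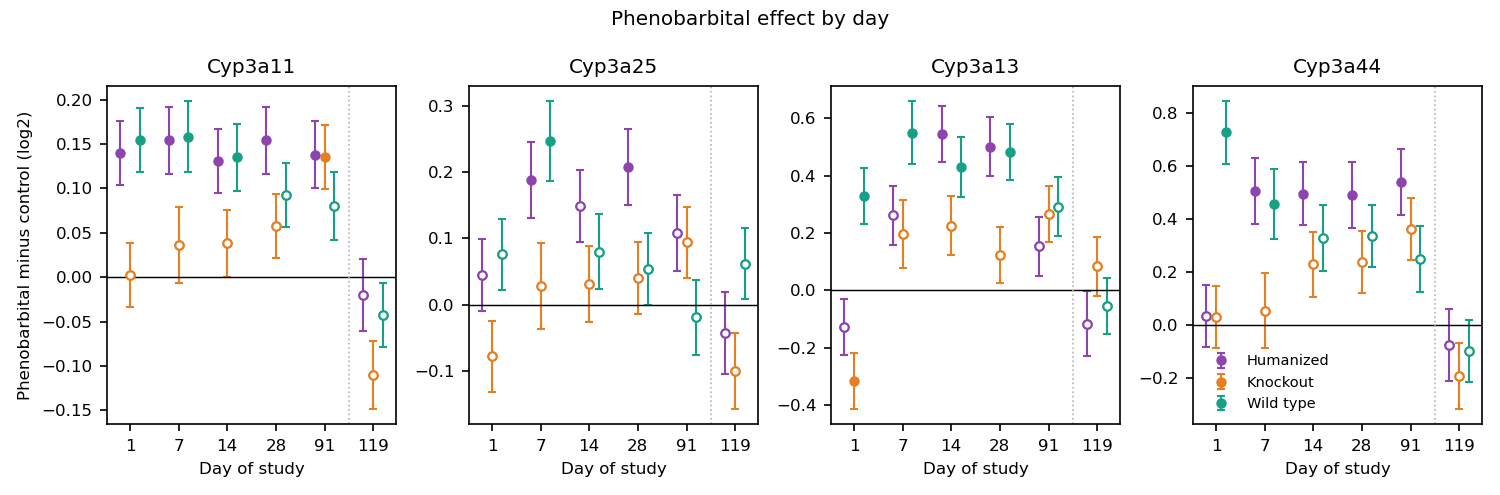
Phenobarbital minus control on the log2 scale (limma, ± SE) by day for the 4 tested genes in humanized, knock-out and wild-type mice; filled symbols have an adjusted p under 0.05 and open ones do not. The values on day 119 lie between −0.19 and 0.08, and the largest dosing-day value is 0.73, for Cyp3a44 in wild-type mice on day 1.

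Counted by day, the tested genes that passed in humanized mice were 1, 3, 3, 4 and 2 of 4 on days 1, 7, 14, 28 and 91, each as higher. The shares of all genes that passed on those days were 11.7%, 4.84%, 11.9%, 7.7% and 2.19%. In knock-out mice 1 gene passed on day 1, as lower, and 1 on day 91, as higher, with 8.08% and 3.45% of all genes passing, and none on days 7, 14 and 28, with 0.0158%, 0.325% and 5.16%. In wild-type mice 3, 4, 2, 1 and 0 of 4 passed, each as higher, with 12%, 2.72%, 8.79%, 5.55% and 2.13% of all genes passing. So the count peaked on day 28 in humanized and on day 7 in wild-type mice, a difference that was not itself tested. Without the livers high in acinar markers, 1, 2 and 0 genes passed in wild-type mice on days 1, 7 and 14. With the spread estimated from the compared groups' arrays alone, Cyp3a13 missed on day 1 in knock-out (adjusted p = 0.188) and wild-type mice (adjusted p = 0.0849) and passed on day 91 in wild-type mice (adjusted p = 0.0428). So estimated, Cyp3a25 missed on days 7 and 28 in humanized mice (adjusted p = 0.263 and 0.0942) and on day 7 in wild-type mice (adjusted p = 0.164), and Cyp3a44 missed on days 7, 28 and 91 in humanized mice (adjusted p = 0.146, 0.157 and 0.0711).

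On day 119, after 4 weeks without phenobarbital, none of the 4 genes differed from control in any genotype, with 0.214% of all genes passing in humanized, 0.111% in knock-out and 0.0238% in wild-type mice. Of the 12 values 10 were below 0, with adjusted p of 0.385 or more for Cyp3a11. In knock-out mice on that day Cyp3a11 read 14.10, 14.23, 14.28 and 14.31 in mice withdrawn from phenobarbital, against 14.31, 14.33, 14.35, 14.35 and 14.37 in controls, a difference of −0.11 ± 0.038 (SE; adjusted p = 0.385). In wild-type mice it read 14.21, 14.22, 14.26, 14.31 and 14.35 in withdrawn mice, against 14.26, 14.28, 14.33, 14.34 and 14.35 in controls, a difference of −0.043 ± 0.036 (SE; adjusted p = 0.999). The wild-type groups overlapped, while 3 of the 4 withdrawn knock-out livers lay below every control.

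The change against the dosing days was tested directly, as the day 119 difference minus the dosing-day mean difference. In humanized mice it was −0.164 (adjusted p = 0.00829) for Cyp3a11, −0.382 (adjusted p = 0.0279) for Cyp3a13, −0.183 (adjusted p = 0.0622) for Cyp3a25 and −0.489 (adjusted p = 0.0172) for Cyp3a44, with 10.1% of all genes passing. In knock-out mice it was −0.164 (adjusted p = 0.0461) for Cyp3a11, and the other 3 genes did not pass (−0.374 to −0.015), with 0.341% of all genes passing. In wild-type mice it was −0.167 (adjusted p = 0.00412) for Cyp3a11, −0.473 (adjusted p = 0.00221) for Cyp3a13, −0.026 (adjusted p = 0.85) for Cyp3a25 and −0.517 (adjusted p = 0.00742) for Cyp3a44, with 3.69% of all genes passing. In humanized mice, without the 1 sample that joins animals 6026 and 6030, Cyp3a13 gave −0.281 (adjusted p = 0.183) and Cyp3a44 gave −0.394 (adjusted p = 0.108). Without animal 5029 Cyp3a13 gave −0.359 (adjusted p = 0.0513). The humanized Cyp3a25 value passed with repeated quantile normalization (−0.182, adjusted p = 0.0479), with the near-identical arrays kept separate (−0.202, adjusted p = 0.0175) and without any 1 of 4 animals (5009, 5026, 6003 or 6027; −0.230 to −0.190, adjusted p = 0.0329 to 0.0482). The knock-out call for Cyp3a11 was lost without any 1 of 9 animals (3003, 3010, 3016, 3026, 3027, 3029, 3030, 4026 or 4028; −0.166 to −0.121, adjusted p = 0.0512 to 0.255), and none of the 3 wild-type calls held without the livers high in acinar markers (−0.146, −0.428 and −0.466; adjusted p = 0.168, 0.125 and 0.163).

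The size of the response differed between genotypes for some of the genes, tested as the difference between their dosing-day mean differences. Knock-out minus wild type was −0.318 ± 0.065 (SE; adjusted p = 0.000111) for Cyp3a13, −0.235 ± 0.078 (SE; adjusted p = 0.0285) for Cyp3a44 and −0.07 ± 0.024 (SE; adjusted p = 0.0339) for Cyp3a11. For Cyp3a25 it was −0.065 ± 0.036 (SE; adjusted p = 0.258). Thus 3 of 4 genes responded less in knock-out mice, where 13.4% of all genes passed. Without the livers high in acinar markers Cyp3a13 gave −0.284 (adjusted p = 0.00636), while Cyp3a44 gave −0.213 (adjusted p = 0.113) and Cyp3a11 −0.045 (adjusted p = 0.338); Cyp3a11 also missed without animal 3021 (−0.063, adjusted p = 0.0567). Humanized minus knock-out was 0.089 ± 0.024 (SE; adjusted p = 0.00535) for Cyp3a11, 0.117 ± 0.036 (SE; adjusted p = 0.0189) for Cyp3a25, 0.23 ± 0.077 (SE; adjusted p = 0.0387) for Cyp3a44 and 0.168 ± 0.065 (SE; adjusted p = 0.0822) for Cyp3a13, so that 3 of 4 passed, with 10.1% of all genes; Cyp3a13 passed too without animal 4004 (0.185, adjusted p = 0.045) or 5023 (0.190, adjusted p = 0.0327). The Cyp3a44 value missed the threshold without any 1 of 18 animals (3009, 3014, 3019, 3020, 4007, 4010, 4013, 4025, 5004, 5007, 5008, 5015, 6003, 6007, 6012, 6016, 6017 or 6021; 0.203 to 0.222), and without the livers high in acinar markers it was 0.205 (adjusted p = 0.0923). Humanized minus wild type passed for none of the 4, with 0.019 ± 0.024 for Cyp3a11, −0.151 ± 0.064 for Cyp3a13, 0.052 ± 0.035 for Cyp3a25 and −0.006 ± 0.077 for Cyp3a44 (SE; adjusted p = 0.251 to 0.989), where 1.88% of all genes passed. These genotype comparisons share arms with each other.

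**Figure D4:**
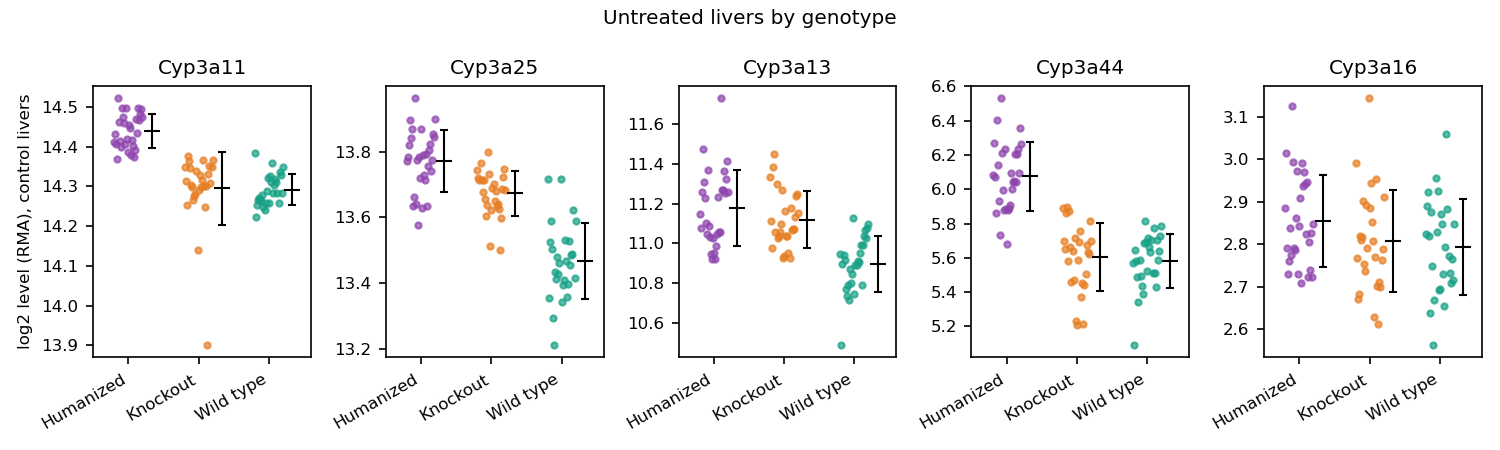
Deposited log2 signal of the 5 genes in control livers of humanized, knock-out and wild-type mice over all 6 days; points are animals and bars are mean ± SD. Cyp3a44 averaged 6.08 in humanized controls, above 5.60 in knock-out and 5.58 in wild-type controls.

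Untreated livers of the genotypes already differed. In controls over all 6 days Cyp3a11 averaged 14.44 ± 0.04 in humanized (SD, n = 29), 14.29 ± 0.09 in knock-out (n = 27) and 14.29 ± 0.04 in wild-type livers (n = 27). For Cyp3a25 the averages were 13.77 ± 0.09 in humanized, 13.67 ± 0.07 in knock-out and 13.47 ± 0.12 in wild-type controls. For Cyp3a13 they were 11.18 ± 0.19 in humanized, 11.12 ± 0.14 in knock-out and 10.90 ± 0.14 in wild-type controls. Cyp3a44 averaged 6.08 ± 0.20 in humanized, 5.60 ± 0.20 in knock-out and 5.58 ± 0.16 in wild-type controls. Humanized controls were highest for all 4 genes, wild-type controls were lowest for Cyp3a13 and Cyp3a25, and knock-out and wild-type controls were close in level for Cyp3a11 and Cyp3a44. Humanized minus wild type was 0.149 ± 0.015 (SE; adjusted p = 5.93e-15) for Cyp3a11, 0.307 ± 0.023 (SE; adjusted p = 1.01e-23) for Cyp3a25, 0.281 ± 0.041 (SE; adjusted p = 2.2e-08) for Cyp3a13 and 0.49 ± 0.05 (SE; adjusted p = 3.15e-15) for Cyp3a44, so that all 4 passed, with 28.1% of all genes. Knock-out minus wild type passed for Cyp3a13, at 0.227 ± 0.042 (SE; adjusted p = 1.16e-05), and for Cyp3a25, at 0.211 ± 0.023 (SE; adjusted p = 3.67e-13), with 22.4% of all genes; it was 0.006 ± 0.016 (SE; adjusted p = 0.832) for Cyp3a11 and 0.03 ± 0.051 (SE; adjusted p = 0.728) for Cyp3a44. Humanized minus knock-out passed for Cyp3a11 at 0.143 (adjusted p = 2.11e-13), for Cyp3a25 at 0.096 (adjusted p = 0.00164) and for Cyp3a44 at 0.461 (adjusted p = 3.35e-13), with 16.6% of all genes, and was 0.054 (adjusted p = 0.39) for Cyp3a13. Acinar markers moved with the genotype in controls: all 5 were lower in humanized than in wild-type controls (median −1.128), and between knock-out and wild type none passed (median −0.956). Without the livers high in them, the calls against wild type held for the same genes, 4 in humanized and 2 in knock-out controls, and the sign turned for Cyp3a11 (−0.011) and Cyp3a44 (−0.009) in knock-out controls, where neither passed.

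The levels give an order of the arms for each gene. On the dosing days Cyp3a11 ran in the order treated humanized (14.57 ± 0.05, SD), control humanized (14.43 ± 0.04), treated wild type (14.41 ± 0.04), treated knock-out (14.34 ± 0.03), control wild type (14.29 ± 0.04) and control knock-out (14.28 ± 0.10). Untreated humanized livers thus read at least as high as treated wild-type livers, and these neighbours, like the 2 lowest arms, lay within an SD of each other. The order of Cyp3a44 was the same for the first 4 arms, with treated humanized at 6.44 ± 0.29, control humanized at 6.04 ± 0.20, treated wild type at 5.98 ± 0.23 and treated knock-out at 5.78 ± 0.14, before control knock-out (5.58 ± 0.21) and control wild type (5.56 ± 0.16); of these neighbours only the first pair lay more than an SD of either arm apart. Cyp3a25 was ordered by genotype first, with both humanized arms (13.90 ± 0.07 treated, 13.76 ± 0.10 control) above both knock-out arms (13.69 ± 0.08 treated, 13.67 ± 0.07 control) and these above both wild-type arms (13.54 ± 0.11 treated, 13.46 ± 0.12 control); control humanized and treated knock-out livers, the knock-out arms and the wild-type arms each lay within an SD of each other. For Cyp3a13 the treated arms came first, humanized (11.41 ± 0.20), wild type (11.28 ± 0.18) and knock-out (11.21 ± 0.22), and then the controls, humanized (11.15 ± 0.19), knock-out (11.11 ± 0.15) and wild type (10.86 ± 0.13); of these neighbours only the last 2 lay over an SD apart. Over time, controls on day 119 did not differ from controls on day 1 for any of the 4 genes in any genotype, with 6.88% of all genes passing in humanized, 7.99% in knock-out and 12.4% in wild-type mice.

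**Figure D5:**
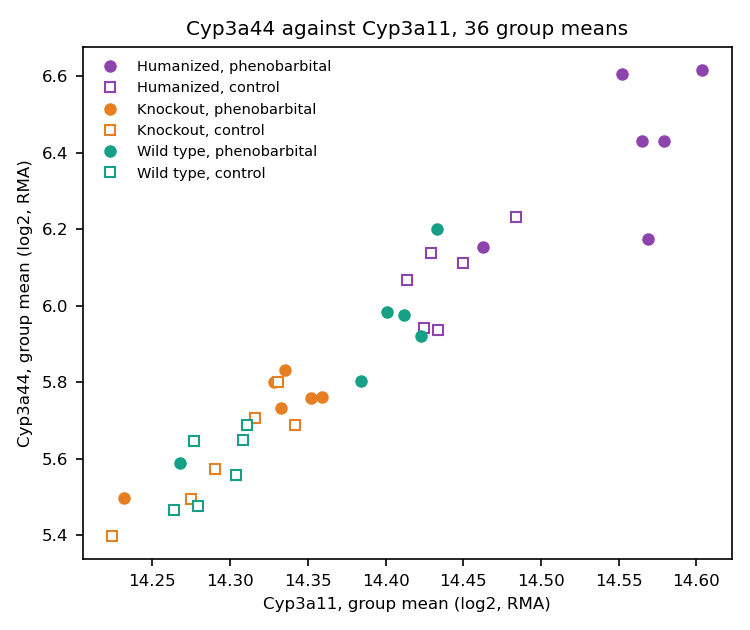
Mean log2 signal of Cyp3a44 against that of Cyp3a11 in the 36 groups, coloured by genotype, with phenobarbital and control marked apart. Groups high in one gene are high in the other (r = 0.962); Cyp3a11 is near the top of the range of the arrays, so the steepness of this relation cannot be read as a relation of RNA levels.

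Among all genes, the one whose 36 group means followed Cyp3a11 most closely was Cyp3a44 (r = 0.962). Whether the Cyp3a44 probe set also reads Cyp3a11 RNA was not tested. The next closest to Cyp3a11 were Rassf1 (0.897) and Abcc3 (0.882). Abcc3 is an export pump of conjugates in the liver. Closest to Cyp3a13 were AW112010 (0.877), Pgrmc1 (0.851), a haem-binding partner of P450 enzymes, and Aldh1a1 (0.827), a retinal dehydrogenase. Closest to Cyp3a25 were Gm13306 (0.82), Gmfb (0.812) and Slc16a12 (0.794), and closest to Cyp3a16 were Slc22a4 (0.785), Ces2a (0.785) and Exosc8 (0.782). After Cyp3a11, Cyp3a44 was most like Olfr154 and Abcc3 (0.853 each). Among the 5 genes themselves the correlations of group means ran between 0.459, for Cyp3a16 with Cyp3a25, and 0.962. These correlations are descriptions over groups that share genotype and treatment.

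Within the groups the genes also varied together from animal to animal. After each group's mean was taken off, Cyp3a13 and Cyp3a25 had r = 0.519 over 166 animals (Spearman rho 0.545, adjusted p = 3.33e-05 by permutation, over 10 pairs), although the genes lie apart on the chromosome. The r was 0.567 without the 2 animals farthest out, 0.512 in humanized, 0.464 in knock-out and 0.592 in wild-type mice, and 0.470 in the 140 livers low in acinar markers. Cyp3a11 and Cyp3a25 had r = 0.370 (rho 0.357, adjusted p = 3.33e-05 by permutation; 0.359 without the 2 farthest), and Cyp3a11 and Cyp3a44 had r = 0.349 (rho 0.420, adjusted p = 3.33e-05 by permutation; 0.465 without the 2 farthest). Each of these 3 rests on a permutation p of 1e-05, the smallest that 100000 permutations can give. Cyp3a25 and Cyp3a44 followed with r = 0.230 (rho 0.197, adjusted p = 0.00752 by permutation; 0.194 without the 2 farthest). For Cyp3a11 and Cyp3a13 r was 0.086 (rho 0.190, adjusted p = 0.331 by permutation for r and 0.0245 for rho; 0.131 without the 2 farthest), and it was 0.074 in humanized, −0.043 in knock-out and 0.360 in wild-type mice. For Cyp3a13 and Cyp3a44 it was 0.171 (rho 0.219, adjusted p = 0.0564 by permutation for r and 0.0115 for rho), and the 4 pairs with Cyp3a16 had r of −0.160 to 0.006. All values of an animal come from 1 array, so that array quality is shared by both genes of a pair.

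Other genes that PXR and CAR are known to raise changed in the same livers; their sizes are not ranked against those of Cyp3a11 and Cyp3a25, whose signals lie where the arrays flatten. Of 34 such genes outside the Cyp3a family, 29 were tested. On the dosing days 28 rose in humanized livers (median difference 0.520), 12 in knock-out livers (0.10) and all 29 in wild-type livers (0.736). This list, like those below, was chosen with earlier results of these data known, so its counts are no independent test. In this comparison 32.4% of all genes passed in humanized, 19.6% in knock-out and 31.5% in wild-type livers. The median over all genes tested was −0.002 in humanized, 0.008 in knock-out and −0.013 in wild-type livers. Cyp2b10, the standard CAR target, averaged 12.64 in treated and 7.93 in control humanized livers (a difference of 4.714 ± 0.088, SE), and 12.99 in treated and 6.49 in control wild-type livers (6.5 ± 0.089). In knock-out livers Cyp2b10 averaged 5.67 treated and 5.50 in controls (0.175 ± 0.090, adjusted p = 0.164). Cyp2c55, a P450 of arachidonic acid, showed 2.841 ± 0.072 in humanized, 0.147 (adjusted p = 0.15) in knock-out and 4.391 ± 0.073 in wild-type livers. In knock-out livers the largest change on the list was that of Gstm3, a glutathione transferase, at 0.62 ± 0.083. Tested between genotypes, the response of 25 of these 29 genes was lower in knock-out than in wild-type mice, with 13.4% of all genes passing. It was higher in humanized than in knock-out mice for 24, with 10.1% of all genes passing. Between humanized and wild-type mice 1 was higher and 11 were lower, with 1.88% of all genes passing. In controls, 23 of the 29 were higher in humanized than in wild-type livers, with 28.1% of all genes passing. Between knock-out and wild-type controls 18 were higher and 3 lower, with 22.4% of all genes passing.

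The mouse genes of the receptors and their partners gave dosing-day differences of −0.289 to 0.148. Nr1i2 and Nr1i3 count among them in every genotype, although knock-out livers lack both receptors. In humanized livers the receptors are human, and their transcripts were not analysed here. Of 18 tested genes of that kind (of 21), 4 fell in humanized livers, 1 rose and 1 fell in knock-out livers, and 8 fell in wild-type livers. The medians were −0.039, −0.015 and −0.084, and the shares of all genes that passed were 32.4%, 19.6% and 31.5%. In both humanized and wild-type livers Rxra, the partner of PXR and CAR on DNA, fell, by 0.156 and 0.155, as did Foxo1, by 0.216 and 0.138, and Cebpa, by 0.10 and 0.137; wild-type Nr1i3 fell by 0.201. Wild-type Nr1i2, which codes for PXR, gave 0.052 ± 0.056 (adjusted p = 0.513). In knock-out livers Rxrg rose by 0.144 and Ncoa1, a coactivator, fell by 0.101.

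Of the genes that pass electrons to P450 enzymes or bind to them as partners (Pgrmc1 and Pgrmc2), 5 of 6 were tested, with the reductase Por not analysed here. Of these, 4 rose in humanized, 2 in knock-out and 3 in wild-type livers, with medians of 0.118, 0.062 and 0.125. The shares of all genes that passed were 32.4%, 19.6% and 31.5%. Cyb5a, cytochrome b5, rose by 0.196 in humanized, 0.062 in knock-out and 0.206 in wild-type livers. Its arm means on the dosing days ran 13.535 to 13.794, like Cyp3a25 near the top of the range. These sizes are therefore not ranked against those of Cyp3a11 either. Cyb5r3, its reductase, rose by 0.118 in humanized and 0.127 in wild-type livers, and Pgrmc1 by 0.089 and 0.125.

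Since Cyp3a44 is a female-predominant gene, other sex-dependent genes were set beside it. On the dosing days 32.4% of all genes passed in humanized, 19.6% in knock-out and 31.5% in wild-type livers. Of 11 female-predominant genes 7 were tested, and 4 rose in humanized, 1 in knock-out and 4 in wild-type livers, where 1 fell, with medians of 0.591, 0.040 and 0.812. Prom1 rose by 3.441 in humanized livers, the largest value of the list there, and by 0.812 in wild-type livers. Cyp2b9 and Cyp2b13, P450 genes of the Cyp2b family, rose by 1.861 and 0.591 in humanized and by 3.074 and 1.926 in wild-type livers. In knock-out livers Cyp2b9 rose by 0.486. The sulfotransferase Sult3a1 rose by 2.051 in humanized and 2.938 in wild-type livers. Of 12 male-predominant genes 11 were tested, and 7 fell and 1 rose in humanized, 6 fell in knock-out, and 5 fell and 2 rose in wild-type livers, with medians of −0.281, −0.142 and −0.216. Hsd3b5, a steroid enzyme of male liver, fell by 0.702 in humanized, 0.298 in knock-out and 0.349 in wild-type livers. Of 10 perivenous genes, which mark the hepatocytes around the central vein, 3 rose and 5 fell in humanized, 2 rose and 1 fell in knock-out, and 1 rose and 4 fell in wild-type livers; Cyp1a2 rose in all (0.472, 0.273 and 0.656), and Slc1a2 fell in all (by 0.497, 0.252 and 0.296).

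Some markers of other liver cells passed under the treatment, where 32.4% of all genes passed in humanized, 19.6% in knock-out and 31.5% in wild-type livers. Several of the marker counts lie near or below these shares. Of 5 stellate cell markers the same 3, Lrat, Rgs5 and Dcn, fell in humanized (−0.775, −0.298 and −0.237) and in wild-type livers (−0.503, −0.314 and −0.223), and none passed in knock-out livers. Of 8 hepatocyte markers 5 fell in humanized, 1 rose and 1 fell in knock-out and 5 fell in wild-type livers, with medians of −0.10, 0.003 and −0.056. Of the acinar markers none passed in any genotype (medians 0.377 in humanized, 0.144 in knock-out and −0.359 in wild-type livers). Of 5 Kupffer cell markers 1 fell in wild-type livers and none passed elsewhere. Of 3 tested cholangiocyte markers Epcam rose, by 0.153 in humanized and 0.128 in knock-out livers, and of 4 tested endothelial markers Kdr fell by 0.107 in humanized livers. Alas2, the 1 erythroid marker tested, fell by 0.299 in humanized and 0.124 in knock-out livers. Of 2 tested enterocyte markers Fabp2 fell, by 0.359 in humanized and 0.189 in wild-type livers. The part of these markers in the Cyp3a results was not tested.

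None of the nearest genes with values given here rose with the Cyp3a cluster. On the dosing days 32.4% of all genes passed in humanized, 19.6% in knock-out and 31.5% in wild-type livers. Of the 3 tested genes on each side, Zfp655, Zkscan5 and Zkscan14 before the cluster did not pass in any genotype. After it, Rnf6 fell by 0.170 in humanized and 0.124 in wild-type livers and Cdk8 by 0.107 and 0.097. Wasf3, also tested there, is not reported here. Beside Cyp3a13, Mepce fell by 0.098 in knock-out and 0.139 in wild-type livers and Azgp1 by 0.046 in humanized livers, and Pilrb1, Pilra, Gjc3 and Zkscan1 passed in none.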

How the data were processed

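The authors' deposited log2 values, 1 per probe set and array, were made by RMA (robust multi-array average), per the submitters' processing notes; which version, and on which sets of arrays, is not given in the sources used here. Array medians lay between 5.15 and 5.23. Of 45101 probe sets, 34958 had 1 gene symbol in the platform annotation, 932 had several and 9211 none; for each of 18193 genes the single-symbol probe set with the highest mean was used. Genes above their array's median on at least 3 arrays were tested (12622). One limma fit (version 3.58.1, R 4.3.3; lmFit and eBayes) of 36 group means over 166 samples gave 130 residual degrees of freedom, with Benjamini-Hochberg adjustment over all genes of a comparison. Group sizes of 3 to 5 arrays limit the precision. Named besides the 5 Cyp3a genes are receptors, electron partners, up to 4 of the largest changes of each gene list, the 3 genes most like each member and the nearest genes on the chromosome. The members, lists and this rule were chosen with earlier results of these data known. The alternatives were repeated quantile normalization, other filters, other variance priors, only the compared groups' arrays, other treatments of the near-identical arrays, and leaving out each animal. The fit was tested on simulated data.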

Additional observations from a re-analysis of the deposited data

Results flagged for a closer look

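In 11 of 170 gene and group combinations tested, 1 liver lay far from the others of its group by Dixon's gap test; chance alone gives about 1 in 20. For Cyp3a11 these were knock-out control 3016 on day 28 at 14.14 (others 14.29 to 14.33), knock-out control 3025 on day 91 at 13.90 (others 14.25 to 14.37) and wild-type treated 2014 on day 14 at 14.33 (others 14.43 to 14.45). For Cyp3a13 they were knock-out treated 4013 on day 14 at 11.50 (others 11.26 to 11.33), wild-type control 1002 on day 1 at 10.49 (others 10.90 to 10.95) and wild-type control 1016 on day 28 at 10.74 (others 10.89 to 10.91). For Cyp3a16 it was wild-type treated 2022 on day 91 at 3.0 (others 2.82 to 2.86). For Cyp3a44 they were humanized control 5019 on day 28 at 6.09 (others 5.88 to 5.91), humanized control 5024 on day 91 at 6.21 (others 6.00 to 6.05), wild-type treated 2019 on day 28 at 6.39 (others 5.82 to 5.97) and wild-type control 1002 on day 1 at 5.09 (others 5.49 to 5.65). Animal 1002 stood out for both Cyp3a13 and Cyp3a44, and its acinar markers averaged 10.46, against 4.99 to 5.6 in the other animals named; their part in its values was not tested.

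The phenobarbital effect differed between genotypes or days by a test of the difference itself in 7 results. Knock-out minus wild type was −0.07 for Cyp3a11, −0.32 for Cyp3a13 and −0.23 for Cyp3a44. Humanized minus knock-out was 0.09 for Cyp3a11, 0.12 for Cyp3a25 and 0.23 for Cyp3a44. In knock-out mice the day 91 effect minus the day 1 effect of Cyp3a13 was 0.58.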

How the results depend on the processing

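Of 144 results of the 4 tested genes, 100 kept their direction and their side of the threshold under all 9 alternatives, and 107 kept both without any single animal. No paired analysis was possible because the groups share no animal numbers. The mean over a gene's probe sets changed nothing, since each of the 5 genes has 1, and so a second probe set could not be tried. Repeated quantile normalization turned the sign of 4 uncalled values: Cyp3a11 on day 1 in knock-out mice (−0.003), Cyp3a25 on day 119 against dosing in wild type (0.007), and humanized minus wild type for Cyp3a11 (−0.014) and Cyp3a44 (0.008); it left 1 gene called in humanized mice on day 91. Without the filter, knock-out minus wild type for Cyp3a11 (−0.070, adjusted p = 0.0524) and humanized minus knock-out for Cyp3a44 (0.230, adjusted p = 0.0536) missed the threshold, and no gene passed on day 119 against dosing in knock-out mice (0). With only the compared groups' arrays, which leaves fewer samples to estimate the spread, the Cyp3a11 dosing mean in knock-out mice (0.054, adjusted p = 0.11), its knock-out minus wild type (−0.070, adjusted p = 0.0681) and the Cyp3a44 humanized minus knock-out difference (0.230, adjusted p = 0.066) missed, as did Cyp3a13 in knock-out day 91 against day 1 (adjusted p = 0.186) and Cyp3a44 in humanized day 119 against dosing (adjusted p = 0.0652); the genes called were 0, 0, 1 and 0 in humanized mice on days 1, 7, 28 and 91, 0 in knock-out mice on days 1 and 91, 1 in the knock-out dosing mean, 0 in both later knock-out contrasts, and 1, 2, 1 and 1 in wild-type mice on days 1, 7, 14 and 91. Without animals 4019 and 4024, 0 genes passed in knock-out mice on day 91 and in their day 119 contrast.

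Without the livers high in acinar markers, chosen after seeing the data, missed calls were Cyp3a25 in the wild-type dosing mean (0.070), knock-out minus wild type for Cyp3a11 (−0.045) and Cyp3a44 (−0.213), and humanized minus knock-out for Cyp3a44 (0.205). Then 0 genes were called in knock-out mice on day 1 and in their day 91 against day 1 contrast, 1, 2 and 0 in wild-type mice on days 1, 7 and 14, 0 in their day 119 contrast, and 1 in knock-out minus wild type. Uncalled values that turned were Cyp3a11 in knock-out mice on day 1 (−0.000), in humanized mice on day 91 against day 1 (0.000) and in knock-out minus wild-type controls (−0.011); Cyp3a13 on day 119 in knock-out mice against dosing (0.002); Cyp3a25 in wild-type mice on day 14 (−0.006) and on day 119 against dosing (0.005), and in humanized controls over time (−0.008); and Cyp3a44 in humanized mice on day 1 (−0.009) and in knock-out minus wild-type controls (−0.009). The cause of these changes was not tested.

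Leaving out 1 animal at a time, with 6026 and 6030 left out together as 1 sample, gave these ranges. Calls were at stake for knock-out minus wild type of Cyp3a11 (−0.086 to −0.063) and humanized minus knock-out of Cyp3a13 (0.150 to 0.190) and Cyp3a44 (0.203 to 0.256). Genes called ranged over 1 to 3 and 1 to 2 in humanized mice on days 7 and 91, 0 to 1 and 0 to 2 in knock-out mice on days 1 and 91, 2 to 4 in wild-type mice on day 7, 0 to 1 for knock-out day 91 against day 1, and 1 to 4 in humanized and 0 to 1 in knock-out mice for day 119 against dosing. The sign of uncalled values turned for Cyp3a11 in knock-out mice on day 1 (−0.016 to 0.016), in humanized day 91 against day 1 (−0.025 to 0.013), in knock-out minus wild-type controls (−0.000 to 0.019) and in knock-out controls over time (−0.009 to 0.022); for Cyp3a13 in knock-out mice on day 119 (−0.079 to 0.190) and against dosing (−0.178 to 0.091), and in wild-type day 91 against day 1 (−0.106 to 0.048); for Cyp3a25 in wild-type mice on day 91 (−0.045 to 0.012) and in humanized (−0.019 to 0.020) and wild-type (−0.063 to 0.027) controls over time; and for Cyp3a44 in humanized mice on days 1 (−0.034 to 0.102) and 119 (−0.127 to 0.018), in knock-out mice on days 1 (−0.005 to 0.055) and 7 (−0.010 to 0.138), and in humanized minus wild type (−0.032 to 0.021).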
